A study of Schizosaccharomyces pombe with 6 samples.

Results

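The phosphate-related genes described here are the *PHO* regulon of fission yeast (*Schizosaccharomyces pombe*) and the predicted phosphate transporter genes named with it. They are 6 systematic IDs of the 6986 in the count table. *pho1* (SPBP4G3.02) encodes the secreted acid phosphatase. *pho84* (SPBC8E4.01c) encodes the inorganic phosphate transporter of the plasma membrane, and *tgp1* (SPBC1271.09) the glycerophosphodiester transporter. SPBC8E4.02c lies in the *prt2* locus beside *pho84*, and the reference gene table gives it as a synonym of the noncoding RNA *prt2*. The deposited annotation instead types it as a protein-coding gene. SPCC2H8.02 and SPBC1683.01 are annotated as phosphate transporters by prediction and carry the names *pho843* and *pho841* in the reference table. The members were taken by ID under a rule that names no measured value, though with earlier results of these data known. All 6 passed the filter on low counts and were tested.

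Fission yeast takes up phosphate through transporters of the cell surface and frees it from organic esters with the acid phosphatase Pho1. When phosphate is plentiful, *pho84*, *pho1* and *tgp1* are held low by transcription of long noncoding RNAs (*prt2*, *prt* and *nc-tgp1*) that start upstream of the mRNA promoters and run into them. The activator Pho7 drives the mRNA promoters. Inositol pyrophosphates are signaling molecules whose levels affect where transcription of these noncoding RNAs ends, and SPX domains are protein modules that bind them.

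RNA-seq of poly(A)+ RNA was compared between wild-type cells (strain AGP73, h+) and *spx1*Δ cells (strain BS53, h+), in which *spx1* is replaced by kanMX, with 3 biological replicates each. Both strains were grown to log phase in the rich medium YES at 30°C, so neither was starved of phosphate. A single strain stands for each genotype, and any other difference between the strains cannot be told apart from the loss of *spx1*. In bulk RNA, fewer cells expressing a gene and less RNA per cell cannot be told apart either.

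The libraries held 11539278 to 24696086 counted reads, and every *spx1*Δ library was deeper than every wild-type library. The targeted gene *spx1* (SPAC6B12.07c) had 5153 to 5436 normalized counts in wild-type libraries but 2062 to 2185 in *spx1*Δ. The study reports that the open reading frame was deleted, and gene counts do not show which part of the locus the remaining reads cover. The mating-type markers did not single out the labelled type. Of the 2 P markers, *map2* was at 89.4 to 90.0 normalized counts in wild-type libraries but 901 to 4713 in *spx1*Δ, while *map3* overlapped between strains (622 ± 67.6 and 648 ± 94.4, SD, n = 3). The 5 M markers summed to 1520 to 1734 in wild-type libraries but 1858 to 3603 in *spx1*Δ, with 2 higher, 1 lower and 0 of them at zero reads in a library. The meiotic inducer *mei3* was at 9.82 ± 0.17 (SD, n = 3) in wild-type and at 94.8, 499.6 and 341 in *spx1*Δ replicates 1, 2 and 3, so *spx1*Δ replicate 1 lay nearer to wild type than the others. The other meiotic marker, *mei2*, did not pass the test, at 1378 ± 115 (SD, n = 3) in wild-type and 754 ± 432 (SD, n = 3) in *spx1*Δ, with a log2 fold change of -0.87 (adjusted p = 0.0828). The part of mating type or meiotic state in the results below was not tested.

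Counts over *pho1* and *pho84* fell in *spx1*Δ cells, and counts over the other 4 genes rose. Mean counts were 7.96-fold lower over *pho1* and 10.4-fold lower over *pho84*, and 8.96-fold higher over *tgp1*. At an adjusted p of at most 0.05 in edgeR's quasi-likelihood test, 4 of the 6 were higher and 2 lower. Among all 6127 genes tested, 27.6% were higher and 25.4% lower by that rule, 52.9% in either direction, so a call as such is common in this comparison. When the study's further criteria were added (2-fold or more, and 100 or more normalized counts on average in the higher strain), 3 of the 6 were higher and 2 lower, against 7.51% and 2.25% of all genes. No values overlapped between the strains for any of the 6, with 4 above wild type, as for 32.7% of all genes, and 2 below, as for 33.5% (66.2% in either direction). Over the whole table the absolute log2 fold change had a median of 0.34. A normalized count is a read count divided by the library's scaled size and multiplied by the mean scaled size, so it compares libraries and not genes of unequal length.

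**Figure D1:**
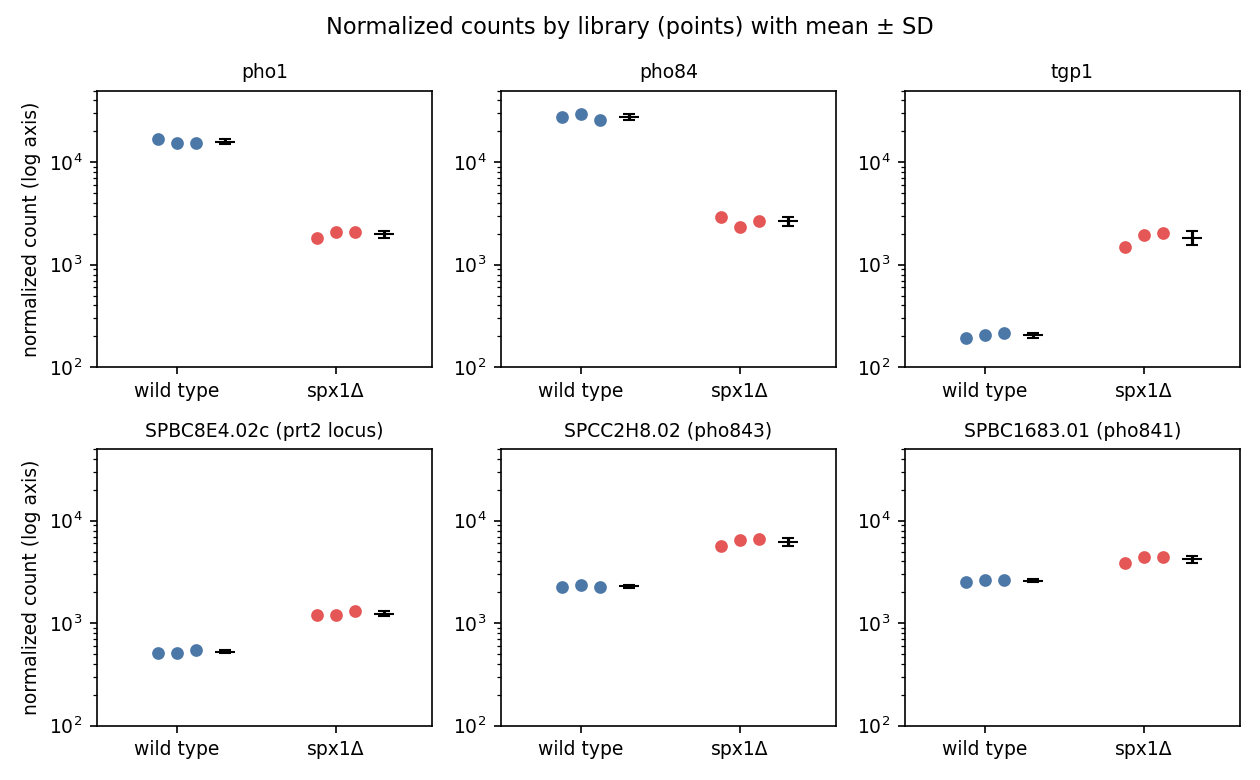
Normalized counts of the 6 genes on a log axis, one point per library, wild type in blue and *spx1*Δ in red, with the mean ± SD of 3 replicates in black. The *spx1*Δ points of *pho1* and *pho84* lie below all wild-type points, and those of the other 4 genes lie above.

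*pho1*, the acid phosphatase gene, had 16808, 15260 and 15281 normalized counts in wild-type replicates 1, 2 and 3 and 1803, 2073 and 2071 in *spx1*Δ replicates 1, 2 and 3. The wild-type libraries were all high and the *spx1*Δ libraries all low, with a wide gap between them. The means were 15783 ± 888 (SD, n = 3) and 1982 ± 156 (SD, n = 3), a log2 fold change of -2.99 ± 0.08 (SE, adjusted p = 1.83e-05). By size of fall it ranked 12 of the 6127 genes. The lowest read count behind these values was 2435.

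*pho84*, the inorganic phosphate transporter gene, had 27441, 29615 and 25779 normalized counts in wild-type replicates and 2943, 2354 and 2655 in *spx1*Δ replicates. Every *spx1*Δ library was low, and the order of the *spx1*Δ libraries differed from that of *pho1*. The means were 27612 ± 1924 (SD, n = 3) and 2651 ± 294 (SD, n = 3), with a log2 fold change of -3.38 ± 0.11 (SE, adjusted p = 3.03e-05) and a wild-type mean 10.4 times that of *spx1*Δ. Together *pho1* and *pho84* took 0.240%, 0.239% and 0.226% of all counted reads in the wild-type libraries and 0.0260%, 0.0252% and 0.0266% in the *spx1*Δ libraries. From read positions along this cluster, the study reported that no *pho84* or *pho1* mRNA was left in *spx1*Δ cells. It assigned the RNA remaining there to *prt2* and *prt*, which run on to the ends of these genes. Gene-level counts do not separate such RNA from mRNA.

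*tgp1*, whose product imports glycerophosphodiesters, changed the other way. Its normalized counts were 192, 205 and 216 in wild-type replicates and 1501, 1946 and 2050.2 in *spx1*Δ replicates. The *spx1*Δ libraries were all high, with replicate 1 below the others. The means were 205 ± 12 (SD, n = 3) and 1832 ± 291 (SD, n = 3), a log2 fold change of 3.16 ± 0.14 (SE, adjusted p = 0.000203) and an 8.96-fold higher mean. By size of rise it ranked 92 of the 6127 genes. A gene-level count holds the *tgp1* mRNA and any longer transcript running through the gene from upstream alike. From read positions along the locus, the study attributed the rise to a longer RNA read through from *nc-tgp1*, and not to more *tgp1* mRNA.

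SPBC8E4.02c, the ID in the *prt2* locus, had 517, 512 and 544 normalized counts in wild-type replicates and 1190.4, 1204 and 1315 in *spx1*Δ replicates. The replicates of each strain lay close together. The means were 524 ± 17.1 (SD, n = 3) and 1236 ± 68.6 (SD, n = 3), 2.36-fold higher in *spx1*Δ, with a log2 fold change of 1.24 ± 0.07 (SE, adjusted p = 0.000616). In the reference annotation, of another build than the counts, *prt2* extends into *pho84* on the same strand. Whether SPBC8E4.02c as counted, typed as protein-coding, shares a stretch with *pho84* is not known here. If it does, how reads there were assigned bears on both counts, and this was not tested.

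The members annotated as phosphate transporters outside the *PHO* regulon, *pho843* and *pho841*, also rose. *pho843* (SPCC2H8.02) had 2243, 2379 and 2252 normalized counts in wild-type replicates and 5612, 6453 and 6556 in *spx1*Δ replicates. Its mean was 2291 ± 76.0 (SD, n = 3) in wild-type and 6207 ± 518 (SD, n = 3) in *spx1*Δ cells, 2.71-fold higher, with a log2 fold change of 1.44 ± 0.08 (SE, adjusted p = 0.000467). The gene lies on chromosome III, apart from the other 5 on chromosome II.

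*pho841* (SPBC1683.01) had 2519, 2657 and 2619 normalized counts in wild-type replicates and 3850, 4389 and 4415 in *spx1*Δ replicates. The strains did not overlap, but the change was the smallest of the 6 genes. The means were 2599 ± 71.3 (SD, n = 3) and 4218 ± 319 (SD, n = 3), 1.62-fold higher in *spx1*Δ, with a log2 fold change of 0.70 ± 0.07 (SE, adjusted p = 0.0021). This was the member that missed the 2-fold threshold.

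All 6 calls held with the same direction when any 1 of the 6 libraries was left out, with adjusted p of at most 0.0222, the highest being that of *pho841*. Counted over the *spx1*Δ libraries, replicate 1 was the nearest to the wild-type mean for 5 of the 6 genes (83.3%), and for *pho1* it was replicate 2. The same was the case for 2818 of the 3244 genes called over the whole table (86.9%). Set against the wild-type mean on the log2 scale, *spx1*Δ replicates 1, 2 and 3 stood at -3.13, -2.93 and -2.93 for *pho1* and -3.23, -3.55 and -3.38 for *pho84*. They stood at 2.87, 3.25 and 3.32 for *tgp1*, 1.18, 1.20 and 1.33 for SPBC8E4.02c, 1.29, 1.49 and 1.52 for *pho843*, and 0.57, 0.76 and 0.76 for *pho841*. The spread between libraries was near that of other genes. The median SD of log2 values over the 6 genes was 0.064 in wild-type and 0.12 in *spx1*Δ cells, against 0.062 and 0.15 over the 5353 genes with a mean of at least 100 normalized counts.

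**Figure D2:**
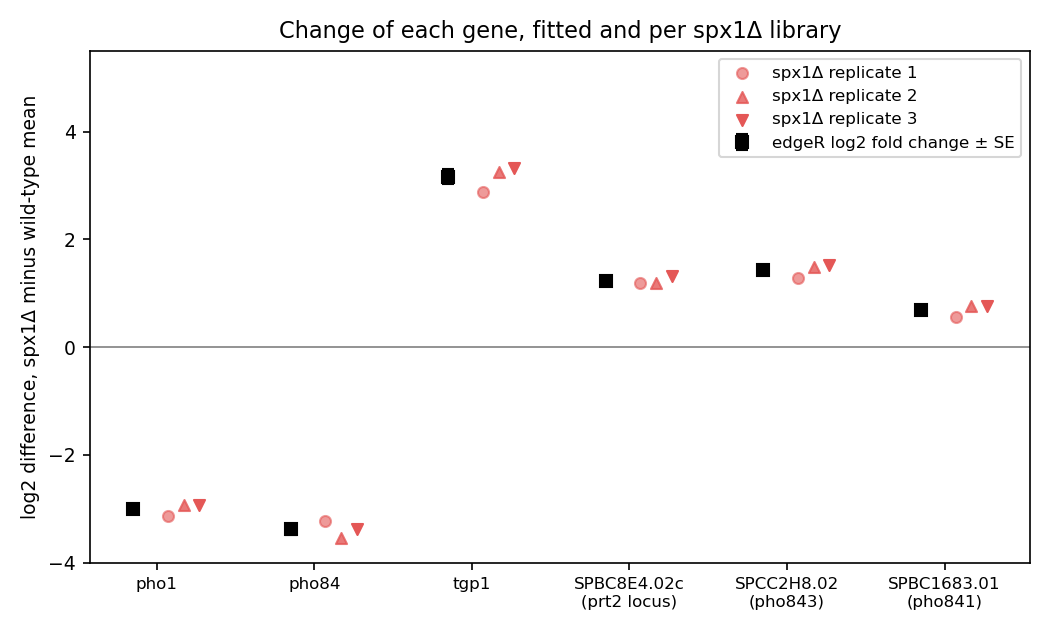
Log2 difference between *spx1*Δ and the wild-type mean for each gene, with the edgeR log2 fold change ± its standard error (black, error bars mostly within the symbol) and the 3 *spx1*Δ libraries (red symbols). The replicates of each gene keep to one side of zero, and for 5 of the 6 genes replicate 1 lies nearest to zero.

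**Figure D3:**
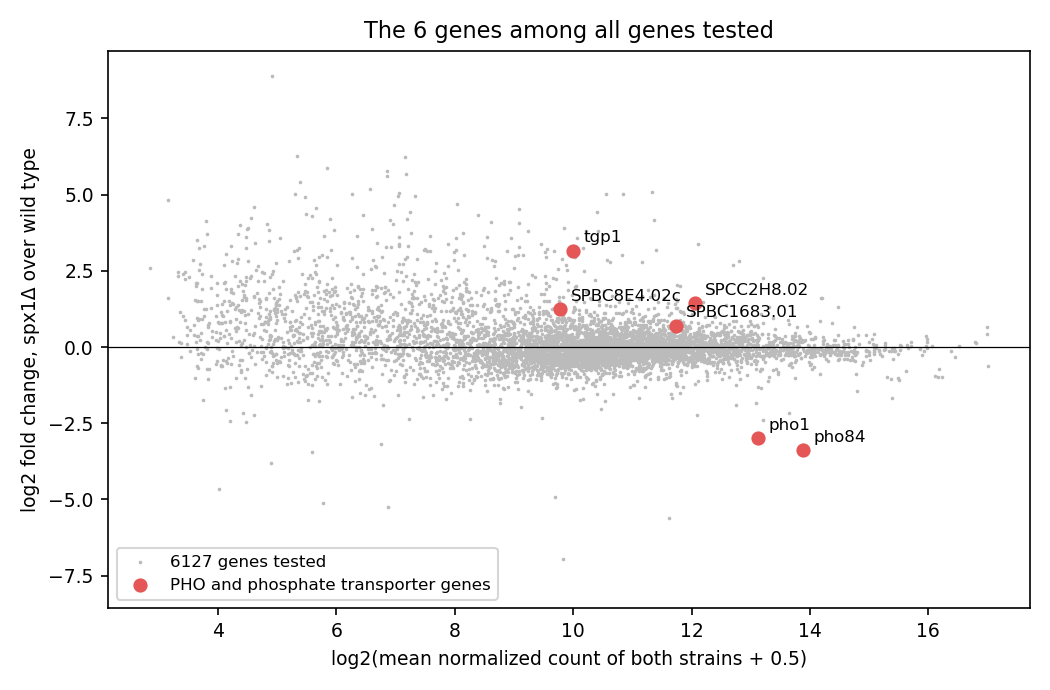
Log2 fold change against log2 of the mean normalized count of both strains plus 0.5 for the 6127 genes tested (gray), with the 6 genes in red. *pho1* and *pho84* lie below nearly all genes of similar count, *tgp1* lies near the upper edge, and *pho841* lies within the cloud.

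Ratios within a library do not depend on how libraries are scaled, and 3 were compared between strains by a two-sided exact permutation test, for which 3 libraries against 3 allow no p below 0.1. The reads over *pho84* per read over *pho1* were 1.63, 1.94 and 1.69 in wild-type replicates and 1.63, 1.14 and 1.28 in *spx1*Δ replicates. The *spx1*Δ values lay below the wild-type values, although replicate 1 of both strains came out almost equal, and the mean log2 difference was -0.39 (exact p = 0.1). The log2 ratio was 0.81 ± 0.13 (SD, n = 3) in wild-type and 0.42 ± 0.27 (SD, n = 3) in *spx1*Δ cells, so the difference is of the order of the spread. The relation of the *prt2* locus to *pho84* moved much further. Reads over SPBC8E4.02c per read over *pho84* were 0.0188, 0.0173 and 0.0211 in wild-type and 0.405, 0.511 and 0.495 in *spx1*Δ libraries, a mean log2 difference of 4.62 (exact p = 0.1). Reads over *tgp1* per read over *pho1* were 0.0114, 0.0135 and 0.0142 in wild-type and 0.833, 0.939 and 0.990 in *spx1*Δ libraries, a mean log2 difference of 6.15 (exact p = 0.1). The ratios of SPBC8E4.02c to *pho84* and of *tgp1* to *pho1* pair genes already seen to move in opposite directions without overlap. Their separation was thus fixed beforehand, and their exact p of 0.1 adds no support. The p-values were not adjusted over the 3 ratios.

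Another predicted transporter of this kind is *pho842* (SPAC23D3.12), outside the members, which is annotated to the plasma membrane. It had 6553 ± 188 (SD, n = 3) normalized counts in wild-type and 4645 ± 1114 (SD, n = 3) in *spx1*Δ, with a log2 fold change of -0.50 ± 0.16 (SE, adjusted p = 0.0405). That call is lost when any 1 library other than *spx1*Δ replicate 1 is left out, with adjusted p of 0.0610 to 0.124. Over these 4 genes together the summed normalized counts were 38792, 41371 and 36999.5 in the wild-type and 18252, 16845 and 18064 in *spx1*Δ replicates, with no overlap (exact permutation p = 0.1, the smallest possible). Most of the wild-type sum was *pho84*, already seen to fall without overlap, so this p adds no support. *pho84* held 69.7% to 71.6% of these reads in wild-type libraries but 14.0% to 16.1% in *spx1*Δ. The share of *pho843* was 5.75% to 6.09% in wild-type libraries but 30.7% to 38.3% in *spx1*Δ, and that of *pho841* was 6.42% to 7.08% and 21.1% to 26.1%. The share of *pho842* was 16.2% to 17.2% and 21.7% to 32.0%, higher in *spx1*Δ although its own counts were lower, since a share also moves with the fall of *pho84*. The shares are of reads and not corrected for gene length, so they compare strains for 1 gene and not transcript numbers between genes.

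**Figure D4:**
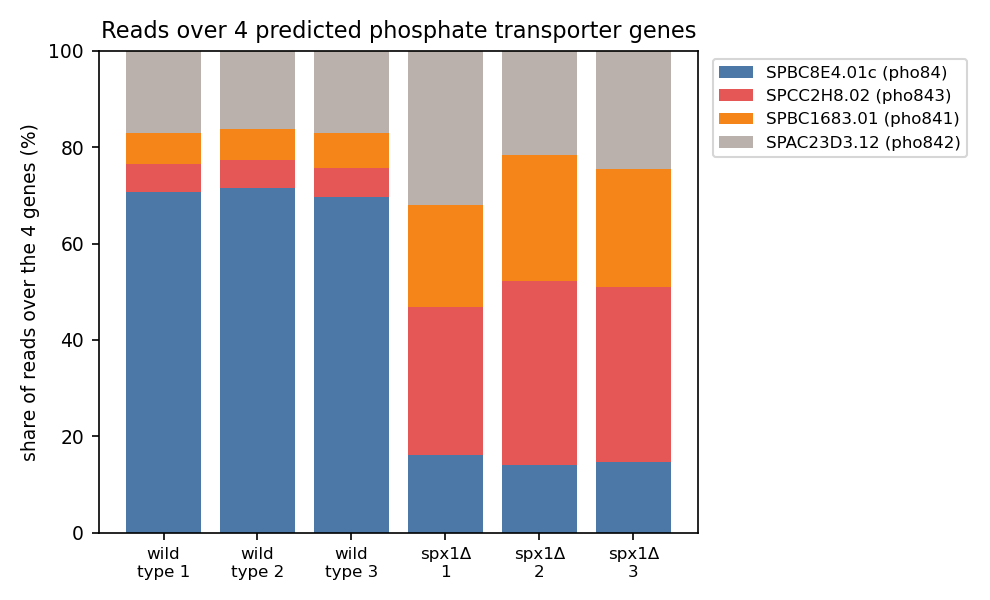
Share of reads (in percent) of each of 4 predicted inorganic phosphate transporter genes among the reads of all 4, in each library, as stacked bars. *pho84* fills 69.7% to 71.6% of the wild-type bars and 14.0% to 16.1% of the *spx1*Δ bars.

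Around the members, the nearest 3 annotated genes on each side gave 24 further genes, of which 20 were tested. Of these 9 were higher and 4 lower in *spx1*Δ, 45% and 20%, against the 27.6% and 25.4% of all genes. Of the protein-coding genes tested, 21.2% were higher and 30.2% lower. The neighbors mix coding genes and noncoding RNAs, so neither background matches them. The median log2 fold change of the neighbors was 0.26 against -0.01 over all genes. The tandem order on chromosome II is *ecl3*, SPBC8E4.02c, *pho84*, *pho1* and *fub2*, all but *ecl3* on one strand, with the untested noncoding SPNCRNA.446 before *fub2*. *ecl3*, a gene whose product extends chronological lifespan when overexpressed, had 94.3, 94.6 and 72.5 normalized counts in wild-type and 10.4, 7.30 and 5.95 in *spx1*Δ replicates. It thus lay low in every *spx1*Δ library, with a log2 fold change of -3.43 ± 0.27 (SE, adjusted p = 0.00124). SPBC8E4.02c, which stands between *ecl3* and *pho84*, rose while both of these fell. On the far side of *pho1*, *fub2*, a predicted proteasome regulator gene, had a log2 fold change of 1.65 ± 0.37 (SE, adjusted p = 0.0135), and the antisense RNA over it one of 1.27 ± 0.18 (SE, adjusted p = 0.00414). The *fub2* libraries were uneven, with 1732, 4764 and 3968 normalized counts in *spx1*Δ replicates 1, 2 and 3 against 857 to 1244 in wild type. The call on *fub2* is lost, at adjusted p of 0.0508 to 0.0568, without wild-type replicate 1, wild-type replicate 3 or *spx1*Δ replicate 3.

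At *tgp1*, both next neighbors were also higher, by less. SPBC1271.10c, a predicted transmembrane transporter gene on the opposite strand whose reference extent overlaps the end of *tgp1*, had 2009.5, 2038 and 1920.5 normalized counts in wild-type and 3782, 3405 and 3976 in *spx1*Δ replicates. The strains did not overlap, and the log2 fold change was 0.90 ± 0.07 (SE, adjusted p = 0.00132). On the other side, the intergenic noncoding RNA ncRNA.1343 had 674, 732 and 611 in wild-type and 1016, 751 and 858 in *spx1*Δ replicates. Its log2 fold change of 0.38 ± 0.13 (SE, adjusted p = 0.0471) is not called when any 1 of the wild-type replicates or *spx1*Δ replicate 3 is left out, at adjusted p of 0.0775 to 0.139. The next genes beyond SPBC1271.10c, *pet802* and *kes1*, had log2 fold changes of -0.06 (adjusted p = 0.541) and -0.04 (adjusted p = 0.526). Without a stated strand setting for the counting, reads of the overlapping *tgp1* and SPBC1271.10c, and of an antisense RNA and its partner, may not be fully separated.

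**Figure D5:**
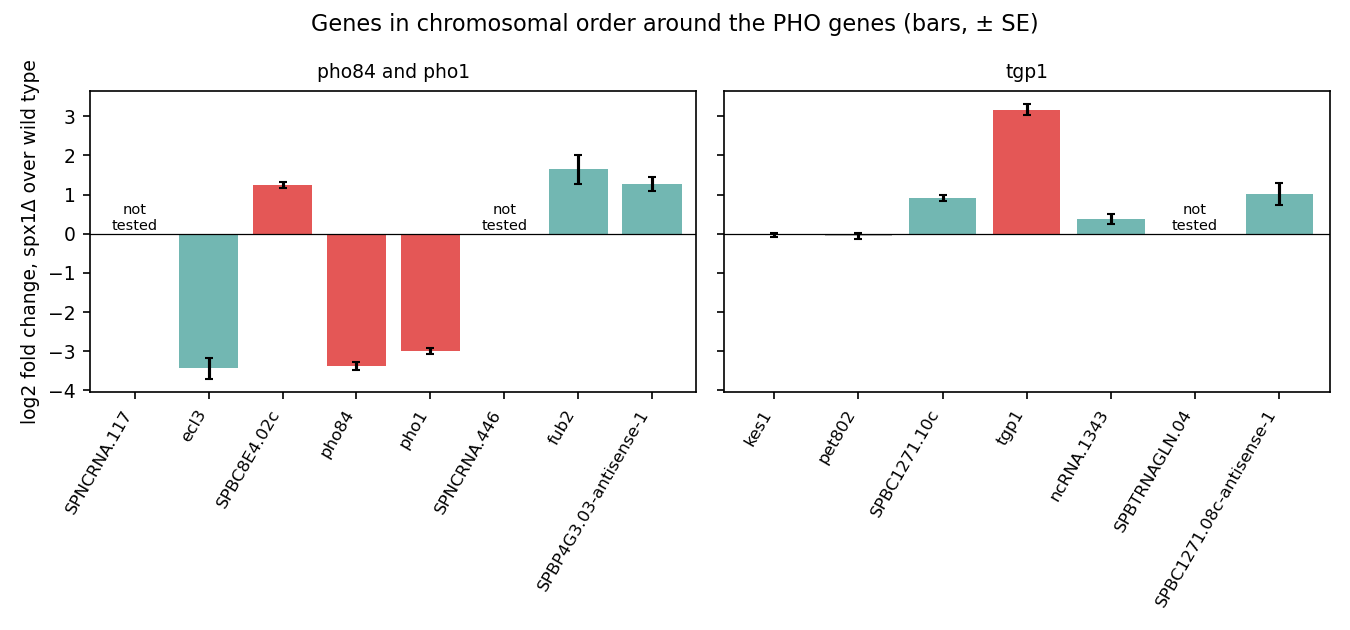
Log2 fold change (*spx1*Δ over wild type, bars ± standard error) of the genes in chromosomal order around *pho84* and *pho1* and around *tgp1*, evenly spaced and not to distance. Members are in red, other genes at an adjusted p of at most 0.05 in teal and the rest in gray; *ecl3*, *pho84* and *pho1* point down while SPBC8E4.02c between them points up.

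Around the predicted transporters, neighbors were called in both directions. Next to *pho843* on chromosome III, *duf89*, a metal-dependent phosphatase gene, and *lyr2*, which encodes a mitochondrial assembly factor, were lower, with log2 fold changes of -0.80 (adjusted p = 0.0039) and -0.63 (adjusted p = 0.00887), opposite in sign to *pho843*. Next to *pho841*, the adenine deaminase gene SPBC1683.02 and the transporter gene *amf1* were higher, at 1.07 (adjusted p = 0.00621) and 0.41 (adjusted p = 0.0102), as was *mug14*, an adducin gene, at 1.006 (adjusted p = 0.0186). Of the 13 neighbors called, 7 held without any 1 library and the other 6 did not, with adjusted p up to 0.139. The 7 were *ecl3*, the antisense RNA over *fub2*, SPBC1271.10c, *duf89*, *lyr2*, SPBC1683.02 and *amf1*.

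Genes tied to the control of the *PHO* regulon moved in both directions. Of 27 such genes outside *spx1* itself, 10 were higher and 12 lower, and 5 did not pass. These are 37% and 44.4% of the list, against 27.6% and 25.4% of all genes tested, or 21.2% and 30.2% of the protein-coding genes, and the median log2 fold change was -0.24. *pho7*, the transcriptional activator of the regulon, was at 3287 ± 67.2 (SD, n = 3) normalized counts in wild-type and 3779 ± 142 (SD, n = 3) in *spx1*Δ, with a log2 fold change of 0.20 ± 0.05 (SE, adjusted p = 0.0199). That call is lost when any 1 library other than *spx1*Δ replicate 1 is left out, at adjusted p of 0.0509 to 0.0885. *csk1*, a kinase that activates cyclin-dependent kinases, was higher at 0.35 (adjusted p = 0.00911).

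Of 3 regulator genes for inositol pyrophosphate enzymes, 2 were lower and 1 did not pass. *asp1*, which encodes the bifunctional kinase and pyrophosphatase that makes and removes the 1-pyrophosphate, had a log2 fold change of -0.30 ± 0.06 (SE, adjusted p = 0.0113). *aps1*, a Nudix pyrophosphatase gene, had one of -0.60 ± 0.12 (SE, adjusted p = 0.00863), and *siw14*, a phosphatase gene, one of -0.12 (adjusted p = 0.286). Of the 5 other SPX protein genes, *vtc2*, a subunit of the vacuolar polyphosphate polymerase, was higher at 0.42 (adjusted p = 0.00664) and *plt1*, a predicted phosphate transporter, lower at -0.46 (adjusted p = 0.0126). *gde1*, *vtc4* and *spx2* did not pass the test, at -0.24, 0.14 and -0.24.

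Of 13 genes for cleavage, polyadenylation and termination of transcription, 4 were higher and 8 lower, 30.8% and 61.5%, against 27.6% and 25.4% of all genes and 21.2% and 30.2% of protein-coding genes. *seb1*, an RNA-binding termination factor, had the largest change, with 3438 ± 78.8 (SD, n = 3) normalized counts in wild-type and 8896 ± 1759 (SD, n = 3) in *spx1*Δ, with a log2 fold change of 1.37 ± 0.15 (SE, adjusted p = 0.00234). *pcf11*, another termination factor, followed at 0.70 (adjusted p = 0.00778), with *cft1* at 0.33 (adjusted p = 0.0373) and *ysh1* at 0.22 (adjusted p = 0.0409). *ssu72*, a phosphatase of the cleavage and polyadenylation factor, had a log2 fold change of -1.03 ± 0.29 (SE, adjusted p = 0.0259). Also lower were *cft2* at -0.56 (adjusted p = 0.0055) and *swd22* at -0.37 (adjusted p = 0.00616). *dis2*, *ppn1*, *rhn1* and *pta1* were lower by 0.25 to 0.36 on the log2 scale, and *ctf1* did not pass the test.

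Of 4 genes for the elimination of meiotic RNAs, *mmi1*, *red1* and *rrp6* were higher, at 0.57, 0.44 and 0.40, and *erh1*, the partner of Mmi1, was lower at -1.06 ± 0.23 (SE, adjusted p = 0.0123). Of the 22 regulator genes called, 10 held without any 1 library. Among them were *csk1*, *aps1*, *vtc2*, *swd22*, *seb1*, *pcf11*, *cft2*, *red1* and *rrp6*. The other 12, *pho7*, *asp1* and *ssu72* among them, were all lost without *spx1*Δ replicate 3, 10 of them also without wild-type replicate 1 and none without *spx1*Δ replicate 1, with adjusted p up to 0.129.

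Among 19 further genes whose products concern phosphate transport, phosphatases, polyphosphate or inositol polyphosphates, 3 were higher, 9 lower and 7 not called, with a median log2 fold change of -0.24. The shares of 15.8% and 47.4% compare with 27.6% and 25.4% of all genes, or 21.2% and 30.2% of protein-coding genes. None changed 2-fold, unlike 5 of the 6 members, and 3 of the 19 (*gde1*, *vtc2* and *vtc4*) are also on the regulator list. The other phosphatase genes did not share the large fall of *pho1*: the vacuolar alkaline phosphatase gene *pho8* was at -0.45 (adjusted p = 0.0115), the thiamine-repressible acid phosphatase gene *pho4* at -0.31 (adjusted p = 0.0291) and the predicted acid phosphatase gene SPBC4.06 at -0.07 (adjusted p = 0.233). In the vacuolar transporter chaperone complex, which makes polyphosphate, *nrf1* was lower at -0.48 (adjusted p = 0.00269) where *vtc2* was higher. *kcs1*, an inositol polyphosphate kinase gene, was higher at 0.46 (adjusted p = 0.0093), *sac12* and *sac11* were lower at -0.34 and -0.31, and *arg82* was lower at -0.44 (adjusted p = 0.019). The mitochondrial phosphate transporter gene SPBC1703.13c was at -0.10 (adjusted p = 0.232). Of the 12 called, *vtc2*, *nrf1*, *sac12*, *sac11* and *kcs1* held without any 1 library, and the other 7, *pho8*, *pho4* and *arg82* among them, were lost without *spx1*Δ replicate 3.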

How the data were processed

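Poly(A)+ RNA-seq libraries of 3 wild-type and 3 *spx1*Δ replicates were analysed. The authors mapped paired reads to build ASM294v2 with HISAT2 2.1.0, converted alignments with SAMtools and counted reads per gene with HTSeq 0.10.0; the strand setting of HTSeq, and which SAMtools and DESeq2 releases were used, is not stated in the sources read. The deposited count table holds raw whole-number counts of the authors. A second deposited table, from DESeq2, holds the authors' mean signal, log2 fold changes, p-values and a Wald score; none of these values was used, only names, types and products.

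One duplicate row without reads was dropped, leaving 6986 IDs, of which 6833 matched the RefSeq gene table of ASM294v3. That table served only for names, order, strand and the overlaps between genes stated above, which are those of ASM294v3. Because the genome here is of another build, no sequence, coordinate, promoter motif, protein comparison or length-corrected level is given. *prt* and *nc-tgp1* are not analysed here.

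TMM scaling and filterByExpr preceded the test, run with glmQLFit and glmQLFTest in edgeR 4.0.16 (R 4.3.3), without covariates, and the Benjamini-Hochberg adjustment ran over 6127 genes. Every adjusted p in the text comes from this fit unless another setting is named. Standard errors are the absolute log2 fold change over the square root of F. Log2 differences per library used a pseudocount of 0.5. Totals were 11539278 to 15282140 counts for wild-type libraries and 20929960 to 24696086 for *spx1*Δ, and the fewest reads behind a member in a library were 126. Alternatives were DESeq2 1.42.0, limma-voom (limma 3.58.1), library size only, no filter, protein-coding genes only, a replicate block and leaving out each library. The script was tested on simulated data. Named were the 6 members, *spx1*, most called genes of the regulator, product and neighbor lists, and others where a sentence needed them. For each member, up to 3 genes of most similar pattern were named. The members and lists were chosen with earlier results of these data known. The values of 1 gene of the regulator list are not reported here.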

Additional observations from a re-analysis of the deposited data

How the results depend on the processing

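The 6 genes kept their direction and their call under all alternatives run (DESeq2, limma-voom, library size only, no filter, protein-coding genes only, replicate block, each library left out). Over all of these the log2 fold change ranged from -3.03 to -2.92 for *pho1*, -3.47 to -3.30 for *pho84*, 3.08 to 3.28 for *tgp1*, 1.19 to 1.31 for SPBC8E4.02c, 1.40 to 1.52 for *pho843* and 0.67 to 0.78 for *pho841*. Log2 fold changes over all genes had medians of -0.02 to 0.04. The 3 ratios kept their direction without any 1 library, at -0.54 to -0.27, 4.55 to 4.73 and 6.06 to 6.22, and with a pseudocount.

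Counts over lists and over all genes depended on single libraries. With 1 library left out, all genes called higher numbered 936 (without wild-type replicate 1) to 2268 (without *spx1*Δ replicate 1) and lower 555 (without *spx1*Δ replicate 3) to 2377 (without *spx1*Δ replicate 1), against 1689 and 1555. At 2-fold and 100 normalized counts the lower calls ranged from 66 (without *spx1*Δ replicate 3) to 285 (without *spx1*Δ replicate 1), against 138. Regulators (with *spx1*) ranged from 6 to 11 higher and 5 to 17 lower, products from 2 to 5 higher and 3 to 11 lower, and neighbors from 4 to 10 higher; the lowest counts of each came without *spx1*Δ replicate 3, in places tied with others, and the highest without *spx1*Δ replicate 1. With protein-coding genes only, 5 neighbors and, at the 2-fold threshold, 194 genes were higher, against 9 and 460; this fit leaves noncoding genes out.

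Correlations of the deviations were 0.161, 0.0476 and 0.0476 between same-numbered replicates, and -0.161 to 0.103 between the others. With 3 libraries per strain, such values cannot show whether same-numbered samples were prepared together, and the labels give only a number. With the number as a block, 1521 genes were higher and 1400 lower, and *pho1* was at -2.995 and *tgp1* at 3.15. Depth limits mainly genes such as *ecl3*, with few reads in *spx1*Δ cells.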

Other observations

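Over the 6 libraries, the genes of most similar pattern were named for each member by the root mean square difference of log2 normalized counts relative to the wild-type mean, as a description. For *pho84* the nearest was its chromosomal neighbor *ecl3*, at 0.2, followed by *pho1* at 0.325. For *pho1* the nearest was *pho84*, then *ecl3* at 0.423 and *mfs3*, a spermidine transporter gene, at 0.519. The last fell from 15830 ± 163 (SD, n = 3) to 3019 ± 1063 (SD, n = 3) normalized counts, with a log2 fold change of -2.39 (adjusted p = 0.00203). For *tgp1* the nearest were the antisense RNA of *abc1* at 0.17, the intergenic RNA SPNCRNA.679 at 0.196 and the urea transporter gene SPAC869.03c at 0.269.

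SPBC8E4.02c lay nearest to the antisense RNA of *slx4* at 0.0692 and to *isp3*, a spore wall gene, at 0.0712. *pho843* lay nearest to *sua7*, the gene of the general transcription factor TFIIB, at 0.0458, and *pho841* to *mst2*, a histone acetyltransferase gene, at 0.032. Among the members themselves SPBC8E4.02c and *pho843* were the closest pair, at 0.158, nearer than *pho1* and *pho84* at 0.325. The distance is not scaled to the size of change, so it mainly compares fold changes. Genes that change little can lie close for that reason.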
